A study of Mus musculus with 8 samples.

Results

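The genes described here encode the machinery that brings new proteins into the endoplasmic reticulum (ER) and cuts or retrieves them there: the Sec61 channel and its partners, signal peptidase, the signal recognition particle (SRP) and its receptor, the KDEL receptors, and the GET pathway for tail-anchored proteins. The 32 genes were listed by function, with earlier results of these data known. The probe sets that the platform annotation gives to them were read on every array. Of the 32 genes, 30 had a probe set of 1 gene, and all 30 passed the filter on dim probe sets, within 10916 genes tested in all and 18194 with such a probe set. Sec61g, the small gamma subunit of the channel, and Srp54a, the SRP subunit that binds signal sequences, had only probe sets shared with other genes and were not tested. Asna1 carries the current name Get3 and Camlg the name Caml in RefSeq.

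The arrays measured total RNA of 3T3-L1 adipocytes, fat cells differentiated in culture from a mouse embryonic fibroblast line, with or without tunicamycin, which stops the assembly of the N-linked glycan precursor and so disturbs folding in the ER. At 4 h there were 1 tunicamycin array and 1 control array, at 8 h 1 tunicamycin array and 2 control arrays, and at 12 h 2 tunicamycin arrays and 1 control array. The labels call the replicates biological and give no dose, and they name no vehicle for the controls. The number of arrays limits the precision: an array with no replicate at its time was assumed in the fit to vary like the replicated pairs.

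Many proteins bound for secretion, for membranes or for the ER itself begin with a hydrophobic signal sequence. SRP binds it as it leaves the ribosome and docks at the SRP receptor, the chain passes through the Sec61 channel, and signal peptidase cuts the signal off. In stressed cells the transcription factors XBP1 and ATF6 are known to activate genes for many of these steps, and fat cells secrete hormones such as adiponectin by this route.

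Tunicamycin-treated adipocytes had more RNA of the SRP receptor, of the pore-forming and beta subunits of the Sec61 channel, of Sec63, Tram1 and of 4 of 5 signal peptidase genes than control adipocytes. In the fit over all times, 14 of 30 genes were higher with tunicamycin and 0 were lower at an adjusted p under 0.05 (limma, Benjamini-Hochberg over all genes tested), which is 46.7% of them, where 11.1% of all genes tested were higher and 9.68% lower. At an unadjusted p under 0.05, 19 of the 30 were higher and 0 lower, beside 17.9% and 17.6% of all genes tested. The median log2 fold change of the 30 genes was 0.40, beside -0.01 over all genes tested. The largest fold was that of Spcs2, 2.18-fold, and the KDEL receptors, SRP and the GET pathway contributed 2 of the 14 calls. Since members of one complex and arrays of one culture series are not independent, these counts describe the genes and carry no test of the list. The list was also made with earlier results of these data known.

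**Figure D1:**
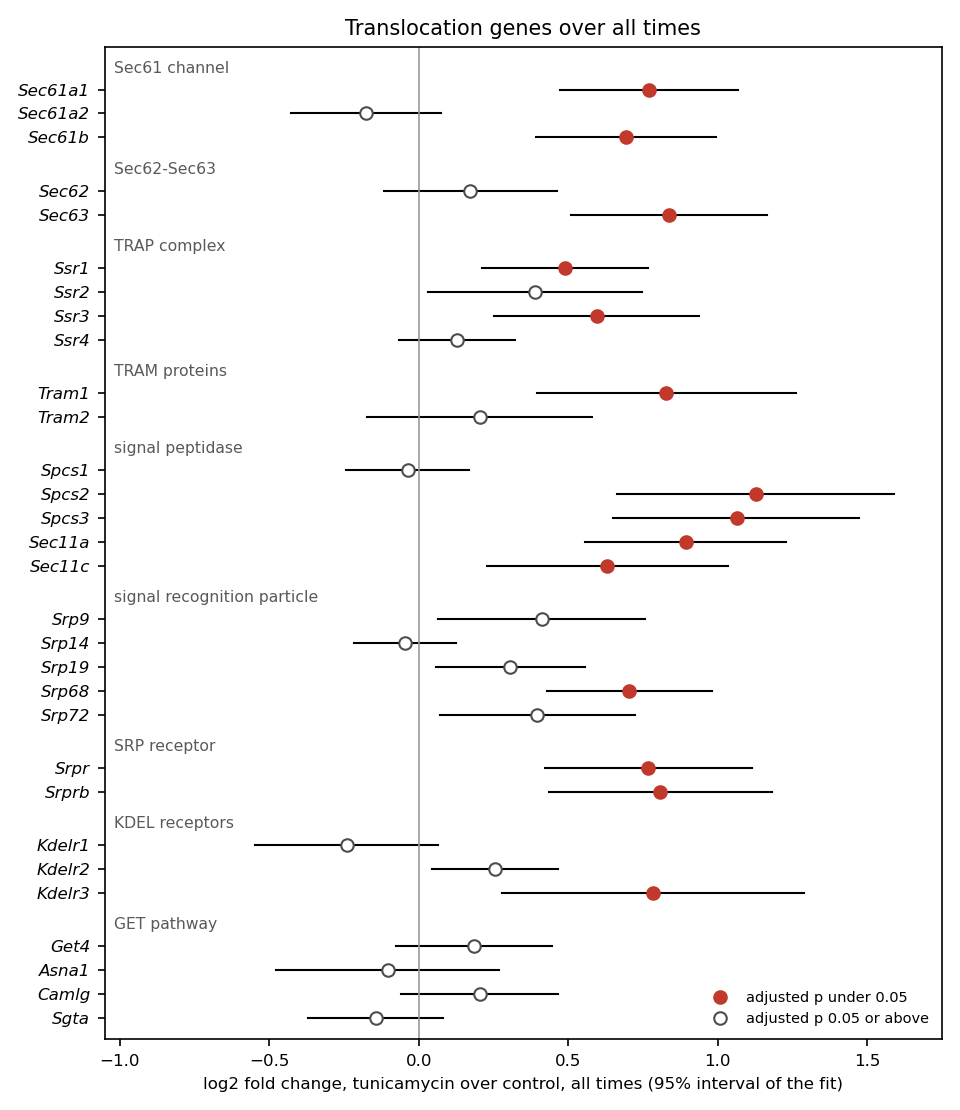
Log2 fold change of each of the 30 genes, tunicamycin over control, over all times, with the 95% interval of the fit as a bar, ordered by role. Filled points mark the 14 genes with an adjusted p under 0.05, all to the right of 0. The signal peptidase genes Spcs2 and Spcs3 lie farthest to the right, and the 4 GET pathway genes lie around 0.

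The Sec61 channel is a trimer through which the chain enters the lumen or the membrane. Sec61a1, the pore-forming alpha subunit (chromosome 6), had an intensity of 1893 with tunicamycin at 4 h, 3383 at 8 h, and 3255 and 3601 at 12 h. In control cells it had 1567 at 4 h, 1624 and 1518 at 8 h, and 1952 at 12 h. Every tunicamycin array was above the controls of its own time, although the 4 h tunicamycin array was below the 12 h control array. The means were 3033 ± 773 with tunicamycin and 1665 ± 196 in control cells (SD, n = 4 each, over the 3 times), and the log2 fold change was 0.77 ± 0.13 (SE; limma adjusted p = 0.00477). Sec61b, the small beta subunit, had 1715, 2262, and 3368 and 3288 with tunicamycin at 4, 8 and 12 h, against 1451, 1540 and 1293, and 1611 in control cells, so its groups did not overlap. Its log2 fold change was 0.69 ± 0.13 (SE; limma adjusted p = 0.0074). Sec61a2, a paralogue of the alpha subunit, had a log2 fold change of -0.18 with a 95% interval of -0.43 to 0.07 (limma adjusted p = 0.295), and its intensities lay between 272 and 297 with tunicamycin and between 292 and 339 in control cells.

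Sec62 and Sec63 sit beside the channel, and Sec63 carries the J domain that recruits the lumenal chaperone BiP to incoming chains. Sec63 had 367 at 4 h, 602 at 8 h, and 606 and 633 at 12 h with tunicamycin. The control intensities of Sec63 were 296 at 4 h, 310 and 326.5 at 8 h, and 277 at 12 h, all below the lowest tunicamycin array. Its log2 fold change was 0.84 ± 0.15 (SE; limma adjusted p = 0.00511). Sec62 was higher at 8 h, with a log2 fold change of 0.54 (limma adjusted p = 0.0205), but gave -0.15 at 12 h and 0.17 over all times, with a 95% interval of -0.12 to 0.46 (limma adjusted p = 0.377). Without the first or without the second control array at 8 h, the call of Sec62 at 8 h was lost. It was also lost with the mean of all probe sets of each gene. A second probe set of Sec62 had 1094 with tunicamycin at 8 h, against 1025 and 935 in control cells.

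The translocon-associated protein (TRAP) complex and the TRAM proteins touch chains in or near the channel. Of the 4 TRAP genes, Ssr1 (0.49 ± 0.13) and Ssr3 (0.60 ± 0.15) rose over all times (log2 fold change ± SE; limma adjusted p = 0.0227 and 0.0237). Ssr3 had 2126, 3063, and 3457 and 4216 with tunicamycin at 4, 8 and 12 h, against 2091, 2112 and 1849, and 1922 in control cells, so its groups were apart at every time, at 4 h by a small margin. Ssr2 had 613, 1050, and 1435 and 1495 with tunicamycin, against 722, 724 and 815, and 842 in control cells, so its tunicamycin array was the lower one at 4 h and the groups were apart the other way at 8 h and 12 h. It gave 0.39 with an adjusted p of 0.112 over all times in limma and rose at 12 h by 0.80 (limma adjusted p = 0.0045). Ssr4 gave 0.13, with a 95% interval of -0.07 to 0.32 (limma adjusted p = 0.325).

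Tram1, which helps signal sequences and membrane spans to enter the lipid, had 416 at 4 h, 870 at 8 h, and 1043 and 1148 at 12 h with tunicamycin. In control cells Tram1 had 419 at 4 h, 441 and 431 at 8 h, and 445 at 12 h. The 4 h tunicamycin array thus lay just below the control range, and the 3 later ones were above it by a wide gap. Over all times the log2 fold change was 0.83 ± 0.19 (SE; limma adjusted p = 0.0162). Tram2, a paralogue with intensities of 57.4 to 121 with tunicamycin and 59.6 to 79.4 in control cells, gave 0.20, with a 95% interval of -0.17 to 0.58 (limma adjusted p = 0.423).

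Signal peptidase had the highest median log2 fold change over all times among the role groups, 0.89 over 5 genes. Spcs2, a non-catalytic subunit (chromosome 7), had 905 at 4 h, 1712 at 8 h, and 2001 and 2462 at 12 h with tunicamycin. Its control intensities were 766 at 4 h, 719 and 720 at 8 h, and 694 at 12 h, so the lowest tunicamycin array was above the highest control array. The means were 1770 ± 654 with tunicamycin and 725 ± 29.9 in control cells (SD, n = 4 each), with a log2 fold change of 1.13 ± 0.21 (SE; limma adjusted p = 0.00596).

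Spcs3, the subunit known to be required for the activity of the enzyme in yeast, had 722, 1288, and 1723 and 1757 with tunicamycin at 4, 8 and 12 h. In control cells Spcs3 had 575 at 4 h, 652 and 530 at 8 h, and 593 at 12 h, again below every tunicamycin array, and its log2 fold change was 1.06 ± 0.18 (SE; limma adjusted p = 0.00486). Sec11a, one of the alternative catalytic subunits, had 1086, 1889, and 2311 and 2637 with tunicamycin, against 861, 1036 and 964, and 1009 in control cells, a log2 fold change of 0.89 ± 0.15 (SE; limma adjusted p = 0.00432). Sec11c, the other catalytic subunit, had 449, 756, and 552 and 843 with tunicamycin, against 414, 354 and 415, and 427 in control cells. The 12 h tunicamycin pair of Sec11c was far apart, and its log2 fold change of 0.63 ± 0.18 (SE) had an adjusted p of 0.0353 in limma.

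Spcs1, a small non-catalytic subunit, was the signal peptidase gene without a call. It had 2217, 2201, and 2257 and 2804 with tunicamycin at 4, 8 and 12 h, against 2384, 2219 and 2214, and 2538 in control cells. Its groups overlapped at 12 h, the 4 h and 8 h tunicamycin arrays were below their controls, and the 95% interval of its log2 fold change ran from -0.24 to 0.17 (limma adjusted p = 0.814). The other probe sets of Spcs1 past the filter gave -0.07 and -0.32 (limma adjusted p = 0.633 and 0.479, adjusted over all probe sets).

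**Figure D2:**
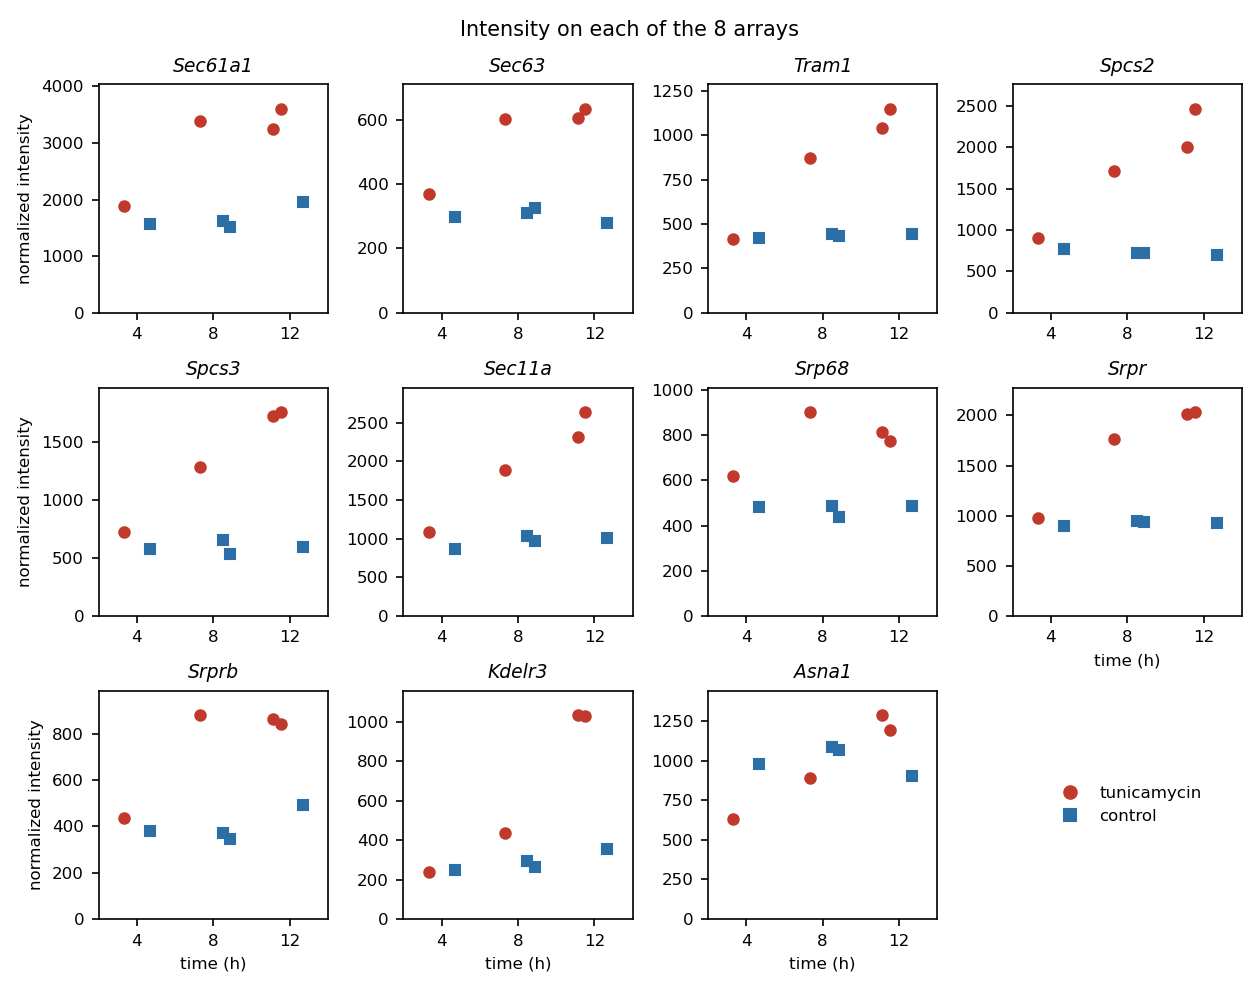
Normalised intensity (linear axis from 0) of 11 genes on each of the 8 arrays against time in hours, with tunicamycin arrays (circles) left of the control arrays (squares) at each time. The circles of Tram1 go from 416 at 4 h to 1148 at 12 h while its squares stay between 419 and 445, and those of Asna1 lie below the squares at 4 h and 8 h and above the square at 12 h.

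SRP is a ribonucleoprotein of 1 RNA and several proteins. Srp68, which forms a dimer with Srp72 on the SRP RNA, had 620 at 4 h, 902 at 8 h, and 813 and 774 at 12 h with tunicamycin. In control cells Srp68 had 483 at 4 h, 486 and 440 at 8 h, and 485 at 12 h, below every tunicamycin array, and the log2 fold change was 0.70 ± 0.12 (SE; limma adjusted p = 0.005). Its partner Srp72 had 955 with tunicamycin against 1095 in control cells at 4 h, in the opposite order to the later times, and gave 0.40 over all times (limma adjusted p = 0.0806). The other probe set of Srp72 was higher with tunicamycin at 4 h (585 against 563). At 8 h Srp72 rose by 0.64 (limma adjusted p = 0.0108) and at 12 h by 0.60 (limma adjusted p = 0.0122). Srp9 and Srp14 form the dimer that slows the ribosome. Srp9 gave 0.41 (limma adjusted p = 0.0886) and was called higher at 8 h, by 0.84 (limma adjusted p = 0.0146). Srp14 gave -0.05, with a 95% interval of -0.22 to 0.12 (limma adjusted p = 0.708), and its intensities spanned 2342 to 2507 with tunicamycin and 2420 to 2620 in control cells. Srp19, which helps the particle to assemble, gave 0.31 (limma adjusted p = 0.0784) and was called at 8 h, by 0.52 (limma adjusted p = 0.033).

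Both subunits of the SRP receptor rose. Srpr, the alpha subunit that docks SRP, had 972 at 4 h, 1761 at 8 h, and 2011 and 2033 at 12 h with tunicamycin, against 897, 947 and 934, and 928 in control cells. All 4 tunicamycin arrays of Srpr lay above all 4 control arrays, and its log2 fold change was 0.77 ± 0.16 (SE; limma adjusted p = 0.0088). Srprb, the membrane-spanning beta subunit, had 438, 879, and 865 and 843 with tunicamycin, against 381, 372 and 347, and 493 in control cells. The 12 h control array was the highest control of Srprb and lay above the 4 h tunicamycin array, and the log2 fold change was 0.81 ± 0.17 (SE; limma adjusted p = 0.00981).

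The KDEL receptors return escaped ER proteins from the Golgi. Kdelr3 (chromosome 15) had 241 at 4 h, 439 at 8 h, and 1033 and 1031 at 12 h with tunicamycin. In control cells it had 250 at 4 h, 294 and 263 at 8 h, and 353 at 12 h. At 4 h the tunicamycin array was the lower one and at 12 h both tunicamycin arrays were above the control, so the log2 fold change over all times, 0.78 ± 0.23 (SE; limma adjusted p = 0.0363), averages unlike values. Kdelr1 had 732, 1143, and 1066 and 969 with tunicamycin, against 1072, 941 and 1159, and 1323 in control cells, with overlapping groups and a log2 fold change of -0.24 with a 95% interval of -0.55 to 0.07 (limma adjusted p = 0.241). Kdelr2 had 2055, 1983, and 2585 and 2205 with tunicamycin, against 1728, 1852 and 1606, and 1917 in control cells. Each tunicamycin array of Kdelr2 was above the controls of its time, and its log2 fold change was 0.26 (limma adjusted p = 0.0808). Its second probe set gave 0.60 (limma adjusted p = 0.0395, adjusted over all probe sets), so the probe sets of Kdelr2 disagree on the call.

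The GET pathway inserts proteins whose single membrane span lies at the C terminus, without SRP. None of its 4 genes passed the test over all times in limma. At an unadjusted p under 0.05 there were 0 of 4, beside 35.5% of all genes tested, and 4 genes are too few to set against that share. Get4, of the complex that hands on the client, gave 0.19 (limma adjusted p = 0.291). Camlg, part of the receptor in the ER membrane, gave 0.20 (limma adjusted p = 0.248), and Sgta, a chaperone that captures the client, gave -0.14 (limma adjusted p = 0.341). Asna1, the ATPase that carries the client, had 633 at 4 h, 892 at 8 h, and 1286 and 1195 at 12 h with tunicamycin, against 979, 1084 and 1068, and 903 in control cells. Its tunicamycin arrays were below the controls at 4 h and 8 h and above the control at 12 h, where the log2 fold change was 0.46 (limma adjusted p = 0.0366). At 4 h Asna1 gave -0.63 (limma adjusted p = 0.148), and its 12 h effect exceeded its 4 h effect by 1.08 (limma adjusted p = 0.0287).

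By time, the differences were found at 8 h and 12 h. At 4 h, 0 of 30 genes were called in limma, and 0.357% of all genes tested were called higher. At an unadjusted p under 0.05 there were 2 at 4 h, Kdelr1 with a log2 fold change of -0.55 and Asna1 with -0.63, beside 10.8% of all genes tested, and the median log2 fold change of the 30 was 0.03. At 8 h, 18 of 30 were higher and 0 lower, or 60%, where 9.42% of all genes tested were higher and 8.95% lower, and the median log2 fold change of the 30 was 0.64. At 12 h, 16 of 30 were higher and 0 lower, or 53.3%, where 10.1% of all genes tested were higher and 10.9% lower, and the median of the 30 was 0.63. At an unadjusted p under 0.05, 0 of the 30 were lower at 8 h and 1 was lower at 12 h, Kdelr1 at -0.38, beside 16.2% and 17.4% of all genes tested. The calls at 8 h and at 12 h had 14 genes in common. Sec11c, Sec62, Srp9 and Srp19 were called at 8 h and not at 12 h, and Asna1 and Ssr2 at 12 h and not at 8 h. For Srp9 this holds for the probe set used. Its other probe set had 811 and 909 with tunicamycin at 12 h against 415.5 in control cells, a log2 fold change of 1.04. With the probe sets of each gene averaged, 13 of the 18 calls at 8 h remained, and Sec62 and Srp19 were among those lost. Without the second control array at 8 h, 9 of the 18 calls at 8 h remained, and Sec11c, Sec62, Srp9, Srp19 and Kdelr3 lost theirs without either control array at 8 h. The 12 h call of Asna1 was lost without any one of these 3 arrays: either control array at 8 h or the first tunicamycin array at 12 h. By the probe sets used, the highest log2 fold changes at 8 h were those of Srprb (1.28), Spcs2 (1.25), Spcs3 (1.13) and Sec61a1 (1.11). At 12 h they were those of Spcs2 (1.67), Spcs3 (1.55), Kdelr3 (1.54), Tram1 (1.29) and Sec11a (1.29). At 12 h the probe set used for Sec61a1 gave 0.81, and its other probe sets gave 2.11, 2.04, 1.09, 1.23 and 1.29. That used for Srprb gave 0.79 at 12 h, and its other probe sets gave 1.225 and 1.34. Called at no time and not over all times were 10 genes: Camlg, Get4, Kdelr1, Kdelr2, Sec61a2, Sgta, Spcs1, Srp14, Ssr4 and Tram2. This too rests on the probe sets used, and the second probe set of Kdelr2 gave a log2 fold change of 1.01 at 12 h.

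**Figure D3:**
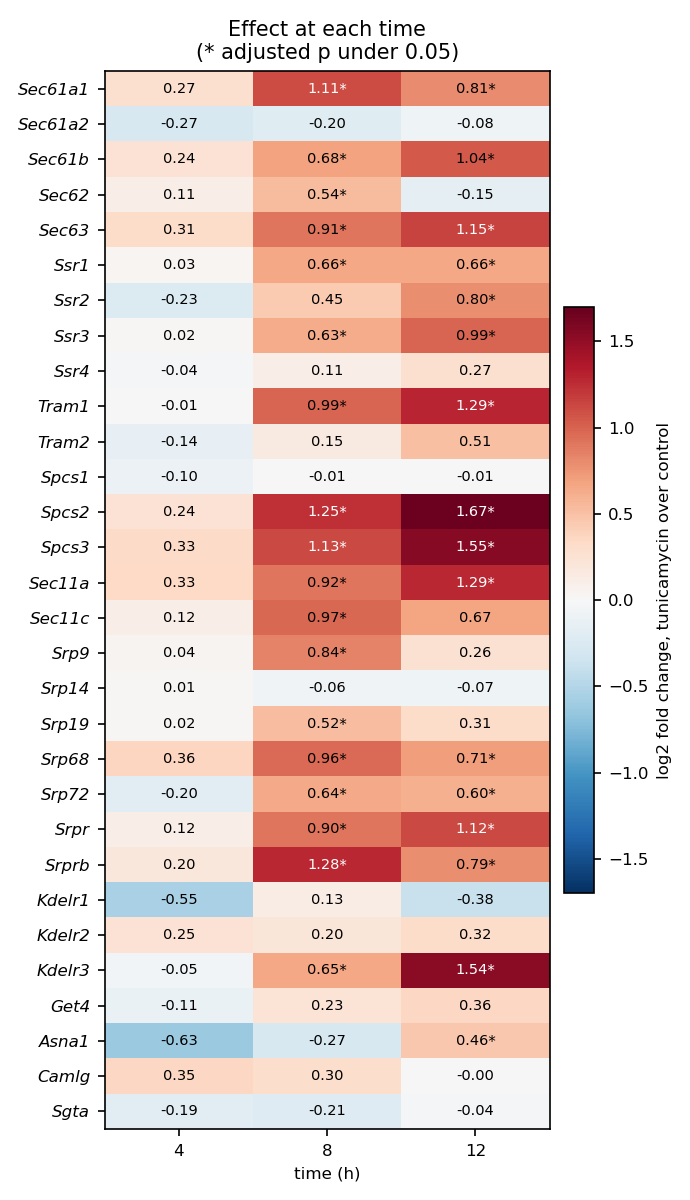
Log2 fold change of the 30 genes, tunicamycin over control, at 4, 8 and 12 h, as a colour scale centred on 0, with the value printed in each cell and a star on values with an adjusted p under 0.05. The 4 h column has 0 stars, the 8 h column 18 and the 12 h column 16.

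The difference between times was itself tested. The 12 h arrays also differed in the spiked hybridisation controls. Their ratio of BioC to BioB was 1.52 to 1.60, beside 3.50 to 3.94 on the 4 h and 8 h arrays. The part of this in the differences between times was not tested. The 12 h effect exceeded the 4 h effect for 8 of 30 genes, against 1.28% of all genes tested. It was below the 4 h effect for 0 of 30, against 180 of the 10916 genes tested. These 8 were Kdelr3 (difference 1.59, limma adjusted p = 0.0147), Spcs2 (1.43, 0.0192), Tram1 (1.30, 0.0215), Asna1 (1.08, 0.0287), Srpr (1.01, 0.0292), Spcs3 (1.22, 0.0361), Ssr2 (1.03, 0.0402) and Sec11a (0.95, 0.0494). Without either control array at 8 h, 1 of these calls remained, that of Kdelr3, and without the second tunicamycin array at 12 h there were 5. At the deposited scaling, with arrays centred on their medians, with no filter or with no intensity trend, 0 of the 8 calls remained in limma, with 0, 11, 14 and 12 of the 30 genes higher at an unadjusted p under 0.05, beside 0.559%, 3.53%, 6.78% and 6.99% of all genes tested. Averaging the probe sets of each gene left 2 of the 8 calls, and treating each probe set separately left 3. The differences of 8 h minus 4 h and of 12 h minus 8 h gave 0 calls each in limma, with 18 and 6 of the 30 genes at an unadjusted p under 0.05, beside 12.9% and 12.4% of all genes tested. In the F test across the 3 times, Kdelr3 (limma adjusted p = 0.0369), Spcs2 (0.0446) and Tram1 (0.0456) passed, 3 of 30 genes or 10%, where 1.72% of all genes tested passed. These 3 calls rest on single arrays: without the first or the second control array at 8 h, or without the second tunicamycin array at 12 h, 0 of the 30 passed in limma, with 16, 16 and 18 at an unadjusted p under 0.05, beside 12.6%, 13.6% and 20.7% of all genes tested, and without the first tunicamycin array at 12 h Spcs2 alone did.

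Arrays were also counted without a fit, by the probe set used for each gene. Then 15 of 30 genes had every tunicamycin array above all controls of its time, beside 20.1% of all genes tested. At 8 h and 12 h alone, 22 of 30 genes had every tunicamycin array above all controls of its time, beside 26.6% of all genes tested. The 14 calls over all times also leaned on single arrays. Without the tunicamycin array at 8 h, 0 of 30 genes were called in limma. Then 14 had an unadjusted p under 0.05 and a positive fold change, beside 12.8% of all genes tested. The 14 genes called with all arrays are not the same set. Without that array they had limma adjusted p from 0.0541 to 0.253 and log2 fold changes from 0.39 to 1.06. Without the control array at 12 h, 7 of the 14 calls were lost (Sec61b, Ssr1, Ssr3, Tram1, Sec11c, Srpr and Kdelr3), with Ssr3 at 0.37 and Kdelr3 at 0.35. Srprb gave 0.54 without the tunicamycin array at 8 h. Kdelr3 also lost its call without any one of the 4 remaining 8 h and 12 h arrays that were left out in turn, and Sec11c, Ssr1 and Ssr3 without 3 of those 4. Without either 4 h array, 18 genes were called, with Srp9, Srp19, Srp72 and Ssr2 added. Kept at the deposited scaling, 0 of 30 genes were called in limma and 2 were higher at an unadjusted p under 0.05, beside 2.94% of all genes tested, while the median of all genes tested moved to -0.31 and the median of the 30 to 0.11, a gap of 0.42 beside 0.41 after quantile normalisation.

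Where a gene had several probe sets, the brightest stood for it. The 30 genes had 37 other probe sets of 1 gene, of which 32 passed the filter, and with p-values adjusted over all probe sets 12 of these were called higher and 0 lower. All 18 that belonged to genes called over all times had a positive log2 fold change, and 10 of them were called. Of the 14 that belonged to genes without a call, 2 were called, in Srp9 (0.94, limma adjusted p = 0.0046) and Kdelr2. At 4 h the 6 probe sets of Sec61a1 disagreed in direction. There 3 of them were higher with tunicamycin (1893 against 1567, 1097 against 902, and 150 against 42.9) and 3 were lower (162 against 271, 235 against 398, and 1000 against 1149). At 8 h and 12 h all 6 were higher with tunicamycin. In Spcs2, Srprb, Sec63 and Ssr1 the probe sets also disagreed in direction at 4 h. The probe set used for each was higher with tunicamycin. Another was lower (493 against 536 in Spcs2, 208 against 261 in Srprb, 93.2 against 120 in Sec63, and 224 against 343 in Ssr1). Of the genes without a call over all times, Srp72, Srp14 and Get4 also had probe sets that disagreed in direction at 4 h. On the 4 h tunicamycin array the ratio of the actin 3' probe set to its 5' probe set was 2.81, beside 1.67 to 1.71 on the other tunicamycin arrays and 1.51 to 1.82 on the control arrays. For pyruvate carboxylase that ratio was 43.45, beside 6.74 to 19.8 on the other tunicamycin arrays and 12.15 to 15.28 on the control arrays. The part of RNA quality in the 4 h values was not tested.

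**Figure D4:**
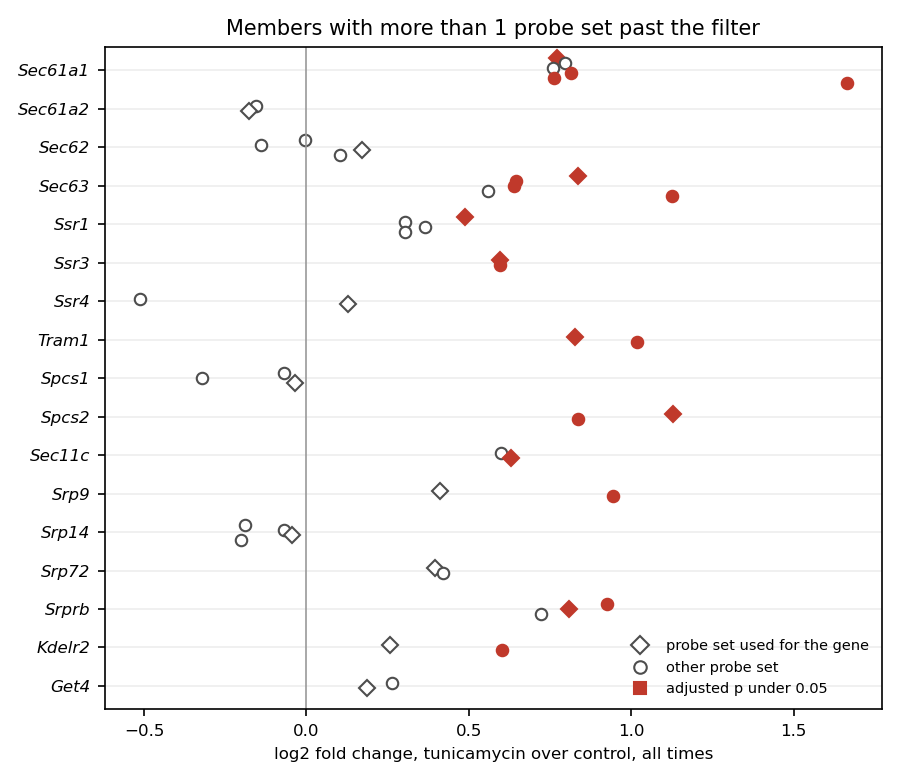
Log2 fold change over all times, tunicamycin over control, of each probe set past the filter, for the genes with more than 1 such probe set. Diamonds are the probe sets used for the genes, circles are the others, and filled symbols have an adjusted p under 0.05 over all probe sets. Within Sec61a1, Sec63, Spcs2 and Srprb all probe sets lie above 0, and Srp9 and Kdelr2 each have a second probe set farther to the right than the one used.

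The 300 bases around the start site of these genes, 250 before it and 50 after, are shown for both KDEL receptors and both signal peptidase subunits that differ most within their role. They come from RefSeq (GRCm38.p6), from which promoters of 23 of the 32 genes were at hand. None was at hand for Sec61a1, Tram1, Spcs3, Srp68 and Sec11c, all called over all times, or for Ssr2, Srp19, Kdelr2 and Camlg. The 23 include Sec61g and Srp54a, which were not tested on the arrays. Capitals mark the letters CCACG and CCAAT, the separate parts of the ER stress response element to which ATF6, XBP1 and NF-Y are known to bind, and in Kdelr3 the XBP1 element TGACGTGG. That element lies on the opposite strand and therefore reads CCACGTCA.
Kdelr3, higher at 8 h and 12 h (chr15:79516158-79516457, plus strand): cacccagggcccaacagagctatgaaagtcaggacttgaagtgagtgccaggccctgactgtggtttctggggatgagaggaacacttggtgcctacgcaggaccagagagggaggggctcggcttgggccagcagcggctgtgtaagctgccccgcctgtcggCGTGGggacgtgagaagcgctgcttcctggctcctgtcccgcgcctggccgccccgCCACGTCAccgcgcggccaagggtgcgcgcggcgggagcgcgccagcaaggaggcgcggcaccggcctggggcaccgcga
Kdelr1, not called (chr7:45872590-45872889, plus strand): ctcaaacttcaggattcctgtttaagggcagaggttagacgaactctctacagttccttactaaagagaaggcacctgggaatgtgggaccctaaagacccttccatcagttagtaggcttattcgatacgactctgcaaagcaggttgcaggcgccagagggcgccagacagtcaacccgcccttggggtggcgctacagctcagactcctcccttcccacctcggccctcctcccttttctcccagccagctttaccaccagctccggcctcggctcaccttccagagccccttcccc
Spcs2, higher at 8 h and 12 h (chr7:99858834-99859133, minus strand): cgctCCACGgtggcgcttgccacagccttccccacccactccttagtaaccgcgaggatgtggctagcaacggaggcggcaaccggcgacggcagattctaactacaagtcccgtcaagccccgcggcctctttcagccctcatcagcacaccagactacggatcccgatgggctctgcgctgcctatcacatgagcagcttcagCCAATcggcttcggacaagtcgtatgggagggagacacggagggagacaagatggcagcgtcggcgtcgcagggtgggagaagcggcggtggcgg
Spcs1, not called (chr14:31001617-31001916, minus strand): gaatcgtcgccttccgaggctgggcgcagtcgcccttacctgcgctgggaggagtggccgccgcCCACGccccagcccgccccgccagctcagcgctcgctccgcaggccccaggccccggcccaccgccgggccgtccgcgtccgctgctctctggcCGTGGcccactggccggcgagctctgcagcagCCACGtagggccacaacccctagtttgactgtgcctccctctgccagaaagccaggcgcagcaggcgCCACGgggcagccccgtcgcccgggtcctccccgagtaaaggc

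Every search below covered both strands, and overlapping matches were each counted. Of the 23 genes, 1 held TGACGTGG, Kdelr3, with the match starting 30 bases before the start site. That is 4.35% of them, and 0.714% of the 27025 genes in the table and 1.09% of the genes tested on the arrays held it. The letters CCACG occurred in 15 of the 23 genes, or 65.2%, beside 35.5% of all genes in the table and 52.8% of the genes tested. Spcs1, which was not called, held 4 such matches and Spcs2 held 1. CCAAT occurred in 8 of the 23, or 34.8%, beside 41.1% and 43.3%. The complete element, CCAAT and CCACG separated by 9 bases, was in 0 of the 23 and in 0.137% of all genes in the table, and the shorter form, ATTGG and CCACG separated by 1 base, was in 0 and in 0.0444%. The amino acid response elements TGATGCAAT and TGATGAAAT were in 0 of the 23, and in 0.222% and 0.278% of all genes. A match of these letters is a description of the sequence and not a binding site, and the CCACG and CCAAT searches were added after the values were seen.

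Other genes of the same route were read from 5 lists, also chosen with earlier results of these data known. Of 52 genes tested on these lists, 23 were higher, 1 was lower, and the median log2 fold change was 0.36, where 11.1% of all genes tested were higher and 9.68% lower. The list of KDEL receptor cargo held 10 genes picked from those whose proteins end in KDEL or a like signal. All 10 rose, among them Sdf2l1 (4.16), an ER cochaperone, and Manf (2.34), a secreted stress factor. Of the lumenal Hsp70 genes and their partners 5 of 8 rose, with Dnajc3 (2.56) and Dnajb11 (2.02), both J-domain cochaperones of BiP. Hspa5, which encodes BiP and is on both lists, averaged 9067 ± 1022 with tunicamycin and 3454 ± 189 in control cells (SD, n = 4 each), a log2 fold change of 1.40. Of the oligosaccharyltransferase, the enzyme next to the channel that attaches the glycan whose synthesis tunicamycin blocks, 5 of 11 genes rose, with Rpn1 (1.29) and Magt1 (0.84). Of the ribosome and nascent chain factors at the ER 3 of 7 rose, with Serp1 (1.08) and Lrrc59 (0.52). Of the ER membrane complex and other insertion factors 2 of 18 rose, a share at the level of all genes tested, namely Ccdc47 (0.68) and Emc7 (0.29), and Mmgt1, a subunit of that complex, fell by 0.38, with a list median of -0.15. Without the tunicamycin array at 8 h, 12 of the 52 genes were higher, and without any 1 of the 8 h and 12 h arrays the call of Mmgt1 was lost.

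The authors' deposited table gives for each time a log10 ratio of combined arrays, with no spread of its own. The table does not state which condition is on top. Across the 10916 genes tested its ratios correlated at 0.816, 0.926 and 0.915 with the log2 fold changes found here at 4, 8 and 12 h, and on that basis, which is not independent of the values here, it was read as likely tunicamycin over control. By the authors' deposited table read this way, 20 of the 30 genes had a ratio above 0 at 4 h, 26 at 8 h and 25 at 12 h, beside 55.2%, 49.6% and 46.8% of all genes tested, and with the sign turned the counts above 0 are 10, 4 and 5. The median log10 ratio of the 30 in the authors' deposited table was 0.0243 at 4 h, 0.189 at 8 h and 0.208 at 12 h, beside 0.0118, -0.00113 and -0.0121 over all genes tested, all with opposite signs if turned. In the authors' deposited table the ratio of Spcs2 was farthest from 0 at 8 h (0.393 in size) and at 12 h (0.517 in size), whichever way it is read. These ratios come from the same arrays and add no replicate.

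Ddit3, a stress-induced transcription factor read as a check of the treatment, averaged 6331 ± 1045 with tunicamycin and 694 ± 132 in control cells (SD, n = 4 each). The adipocyte markers on the array, 10 of 11, all passed the filter, and their summed intensity ran from 3.24e+04 to 4.41e+04 with tunicamycin and from 4.02e+04 to 4.70e+04 in control cells, with 6 of 10 lower. Such a sum is set mostly by the brightest probe sets, and that of Fabp4 had the same top intensity, 1.08e+04, on all 4 control arrays. The median log2 fold change of the 10 markers was -0.46, with Cebpa at -1.495 and Pparg at -0.96, both regulators of fat cell identity, and 5 of the 10 were lower at 8 h and 5 at 12 h. The 5 preadipocyte and fibroblast markers summed to 1.21e+04 to 1.60e+04 with tunicamycin and to 1.57e+04 to 1.94e+04 in control cells. Over all times 1 of them was lower, Pdgfra, as at 8 h, and at 12 h 4 of 5 were lower. Macrophage markers, 3 of 4 past the filter with Ptprc below it, summed to 225 to 411 with tunicamycin and 217 to 472 in control cells, and 0 of 3 endothelial markers passed. Markers of both cell types thus moved with the treatment, their part in the values above was not tested, and fewer cells of a type and less RNA per cell cannot be told apart in such cultures.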

How the data were processed

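Per the labels' protocols, RNA was prepared with Trizol and biotinylated cRNA went onto Affymetrix arrays, 8 in all. The deposited values are linear intensities, 1 for each probe set and array. The sources used here do not say how the authors summarised and scaled them. The authors' deposited comparisons, 1 for each time, give a log10 ratio with its p-value, per the file headers; the p-values were not used.

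Arrays were quantile normalised on the linear scale, values below 0 were set to 0, and log2(value + 2.956) was taken, 2.956 being the 10th percentile of positive values. Fold changes are on that scale and understate the change of dim genes. A gene was read from its brightest probe set of 1 symbol (34958 of 45101 probe sets, 932 with several and 9211 with none). The 10916 genes at or above the 40th percentile, an intensity of 15.3, were tested with limma 3.58.1 (R 4.3.3; Python 3.11.15), with an intensity trend and Benjamini-Hochberg adjustment at 0.05. "All times" is a model of time plus treatment with 4 residual degrees of freedom. Its residual also holds differences of the effect between times. Single times and their differences come from a model of group means with 2. The all times model was tested on simulated data with an effect that was the same at every time. The model of group means was not tested in this way. The 8 h controls correlated at 0.984 and the 12 h tunicamycin arrays at 0.973, and no arrays were identical. Deviations of same-numbered 8 h control and 12 h tunicamycin arrays gave r = 0.0323. These groups differ in time and treatment, so this value cannot tell whether replicate numbers pair the samples.

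The members and lists were chosen with earlier results of these data known. All members are accounted for. Values on every array are given for members called over all times with a log2 fold change of at least 0.7, for those that differ between times by the F test, and for Sec61a1, Srprb and Asna1. Those of Sec61b, Ssr2, Ssr3, Sec11c, Spcs1, Kdelr1 and Kdelr2 were added after the values were seen. Of the other lists, the 2 genes with the largest absolute log2 fold change are named, with Ddit3 and Hspa5 as checks, and Emc7 was named after its value was seen. Alternatives were other scalings, pseudocounts, filters, probe set rules, time points, a replicate block and leaving out each array.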

Additional observations from a re-analysis of the deposited data

Results flagged for a closer look

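The tunicamycin effect differed between the 3 times for 3 of the 30 genes, by limma's F test over the 8 h minus 4 h and 12 h minus 4 h effects: Tram1 (adjusted p = 0.0456), Spcs2 (0.0446) and Kdelr3 (0.0369). The log2 fold changes at 4, 8 and 12 h were -0.01, 0.99 and 1.29 for Tram1, 0.24, 1.25 and 1.67 for Spcs2, and -0.05, 0.65 and 1.54 for Kdelr3. Each 4 h value compares 1 array with 1 array.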

How the results depend on the processing

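Counts of the 30 genes called higher over all times (14 as reported) were 0 at the deposited scaling, 1 with no filter, 9 with no intensity trend and 0 from the 4 h and 8 h arrays alone, and leaving out 1 array gave 0 to 18. At 8 h (18 as reported) they were 0 at the deposited scaling, 11 with arrays centred on the median, 3 with no filter and 8 with no trend, and 9 to 18 leaving out 1 array. At 12 h (16 as reported) they were 0, 10, 5 and 9 under the same alternatives, and 15 to 16 leaving out 1 array. The F test across times (3 as reported) called 0 at the deposited scaling, with median centring, with no filter, with the mean of all probe sets, with every probe set as its own feature and with no trend, 6 with a filter at the 60th percentile, and 0 to 1 leaving out 1 array. Other pathway genes called higher (23 as reported) numbered 11 at the deposited scaling, 10 with no filter and 13 from the 4 h and 8 h arrays, and 12 to 29 leaving out 1 array. Those called lower (1 as reported) numbered 0 at the deposited scaling, with median centring, no filter, no trend, the replicate block and the 4 h and 8 h arrays, 3 as the mean of the effects at 3 times, and 0 to 2 leaving out 1 array. With the replicate number as a block, 14 of the 30 genes were higher, as without it, and 22 of the pathway genes. The complete ER stress element, in 0 promoters as reported, was in 1, that of Sec61g, with 1 mismatch allowed.

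Genes without a call changed sign. At the deposited scaling Sec62 gave -0.12, Ssr4 -0.22, Tram2 -0.13, Kdelr2 -0.074, Get4 -0.091 and Camlg -0.0788. From the 12 h arrays alone Sec62 gave -0.15, Asna1 0.46 and Camlg -0.0048. With the mean of all probe sets Ssr4 gave -0.56. Leaving out 1 array, Sec62 ranged from -0.038 (without the 8 h tunicamycin array) to 0.36, Spcs1 from -0.086 to 0.0078 (without the first 12 h tunicamycin array) and Asna1 from -0.42 to 0.093 (without either 4 h array). The 14 genes called over all times kept a positive log2 fold change in every alternative, and 0 of them kept the call in all 21. The cause of these changes was not tested. With no filter more genes were tested, 18194 beside 10916, and with a filter at the 60th percentile fewer, 7278, with 14, 19 and 16 of the genes called over all times, at 8 h and at 12 h. The 12 h minus 4 h difference (8 genes as reported) was called for 0 at the deposited scaling, with median centring, with no filter and with no trend, for 2 with the mean of all probe sets, for 3 with every probe set as its own feature, and for 1 to 8 leaving out 1 array. At 4 h the fit compares 1 array with 1 array.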
